A study of Mus musculus with 16 samples.

Results

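Ubiquitin ligases that act in striated muscle were followed in the pressure-loaded mouse heart. The set named 9 genes: Fbxo32, Trim63, Asb15, Asb2, Ubr1, Mdm2, Cblb, Nedd4 and Stub1. A probe set, the group of short oligonucleotides that reports a transcript on the array, was taken when the platform annotation gave it exactly 1 gene symbol and that symbol was one of the 9. This rule took 12 of 22690 probe sets and covered 6 genes, with 1 probe set for Asb15, 3 for Nedd4 and 2 each for Fbxo32, Ubr1, Mdm2 and Stub1. Trim63, Asb2 and Cblb had no probe set of this kind and were not analysed here. The genes were picked with their responses to banding already known, so their differences between banded and sham hearts are described below without a p-value.

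The tissue was the left ventricle of C57BL/6J mice aged 12 to 14 weeks. TAC, transverse aortic constriction, is a surgical narrowing of the aortic arch that makes the left ventricle pump against a higher pressure, and sham mice had the operation without the band. RNA was isolated 14 days after surgery. The groups were TAC females, sham females, TAC males and sham males, with 4 arrays each, 1 animal per array, and the labels name no engineered allele. Heart weight and function were not analysed here.

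Ubiquitin is attached to proteins by a relay in which an E1 enzyme activates it, an E2 enzyme carries it and an E3 ligase picks the protein that receives it. Chains of ubiquitin send many substrates to the proteasome. In skeletal muscle, Fbxo32 (atrogin-1) and Trim63 (MuRF1) are the classic ligases of wasting, switched on by FoxO transcription factors and glucocorticoids. In cardiac muscle, Fbxo32 is known to restrain growth signalling through calcineurin, so the family is of interest in a heart that is enlarging.

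Start-site sequences are shown first for Asb15, Mdm2 and Nedd4, each with a probe set past the threshold in both sexes. Ubr1 also had one, but its window held none of the motifs and is not printed. The classic atrophy ligases are known for motifs near their start sites. RefSeq windows on GRCm38.p6, from 250 bases before to 50 after each start, were found for 8 of the 9 genes, in 10 windows. Fbxo32 was not among them. Capitals mark matches on either strand to the FoxO motif GTAAACA, to an arm of the glucocorticoid response element, AGAACA, and to the E-box CANNTG bound by MyoD-like factors.
Asb15, chr6:24527894-24528193, plus strand: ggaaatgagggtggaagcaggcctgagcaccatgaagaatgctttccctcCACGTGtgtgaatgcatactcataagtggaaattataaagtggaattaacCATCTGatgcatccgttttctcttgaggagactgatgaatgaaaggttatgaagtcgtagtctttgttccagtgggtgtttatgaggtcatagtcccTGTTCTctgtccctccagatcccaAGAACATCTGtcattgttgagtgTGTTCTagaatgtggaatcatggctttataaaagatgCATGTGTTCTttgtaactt
Mdm2, chr10:117710709-117711008, minus strand: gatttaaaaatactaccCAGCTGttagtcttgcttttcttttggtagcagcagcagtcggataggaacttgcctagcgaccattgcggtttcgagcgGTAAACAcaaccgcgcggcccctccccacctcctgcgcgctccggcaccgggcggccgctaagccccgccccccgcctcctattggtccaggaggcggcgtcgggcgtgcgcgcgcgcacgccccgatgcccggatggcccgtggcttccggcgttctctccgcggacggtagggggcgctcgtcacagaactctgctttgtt
Nedd4, upstream start, chr9:72662081-72662380, plus strand: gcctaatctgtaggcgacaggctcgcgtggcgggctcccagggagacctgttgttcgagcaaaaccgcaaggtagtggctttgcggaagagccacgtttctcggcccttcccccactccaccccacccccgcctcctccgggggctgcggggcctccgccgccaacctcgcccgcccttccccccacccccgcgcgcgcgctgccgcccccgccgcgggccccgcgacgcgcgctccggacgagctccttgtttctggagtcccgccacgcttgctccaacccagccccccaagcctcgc
Nedd4, downstream start, chr9:72693048-72693347, plus strand: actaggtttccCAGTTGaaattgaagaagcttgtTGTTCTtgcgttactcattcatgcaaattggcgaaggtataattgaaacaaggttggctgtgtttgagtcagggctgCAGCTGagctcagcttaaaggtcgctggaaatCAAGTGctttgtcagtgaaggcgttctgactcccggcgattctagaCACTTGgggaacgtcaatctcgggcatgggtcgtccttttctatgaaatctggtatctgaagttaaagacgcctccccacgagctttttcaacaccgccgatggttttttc

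The Asb15 window held 4 glucocorticoid element arms, 4 E-boxes and no FoxO motif, and in 2 places an arm and an E-box overlapped. An arm is part of an element, and whole elements were not searched for. Among all 32851 windows of 300 bases, 19.0% held the element arm at least once, 72.3% an E-box and 3.65% the FoxO motif. At least 4 such arms stood in 15 windows, 0.0457%, and at least 4 E-boxes in 6.49%. The E-box and the count of at least 4 were added after the windows had been read. Mdm2 had 1 FoxO motif and 1 E-box in a window of 64.7% G and C with 35 CpG pairs, against medians of 52.7% and 7 over all windows. The Nedd4 windows differed: the upstream one had none of the motifs at 73.0% G and C, and the downstream one had 1 element arm and 4 E-boxes at 46.7%. The Trim63 window held 1 FoxO motif, 1 element arm and 3 E-boxes. A match is a run of letters, and no binding was measured here.

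The deposited values are signal intensities, and their trimmed mean was 500.21 to 500.25 on every array. Differences were fitted as log2(signal + 16) with limma over 13575 probe sets for 8272 genes, and log2 differences are given ± SE. Over all of these, 15.1% passed an adjusted p of 0.05 between TAC and sham in females and 17.8% in males. In females 8.6% were lower in TAC and in males 9.78%. All 12 ligase probe sets were above the signal limit of the fit, 130.8. Asb15 and the Ubr1 probe set 1420971_at lay just above it, at percentiles 40.7 and 43.3 of mean signal, and passed through their sham arrays. Detection calls were not used here, so a low signal cannot be told from background. Heart muscle markers were high: all 8 were above the limit, and their summed signal was 193699 to 235367 in TAC females against 266439 to 287575 in sham females, and 217952 to 258569 in TAC males against 259246 to 313851 in sham males. Of these 8 markers, 7 fell and 1 rose in females, and 5 fell in males, with median log2 differences of -0.37 and -0.34. These falls depend in part on the scaling. In females Myh6, Tnni3, Myl2 and Tnnt2 lost their calls with quantile normalization and with median centring. In males Myh6 and Myl2 lost theirs with either and Tnni3 with quantile normalization, under which Myh6 changed sign. Fewer cells of a type and less RNA per cell cannot be told apart in such tissue RNA. Of 7 fibroblast markers, 4 rose in females and 5 in males, with sums of 28563 to 41963 in TAC females against 20026 to 23429 in sham females, and 30088 to 53146 in TAC males against 16664 to 20468 in sham males. Of 6 macrophage markers, 2 rose in females and 5 in males. None of the 8 fast skeletal muscle markers and none of the 5 T cell markers with a probe set passed the signal limit, and none was listed at 0. The part of these shifts in the ligase values was not tested.

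The ligase signals were lower in TAC hearts in most probe sets. In females 11 of 12 had a log2 difference below 0, with a median of -0.78, and in males 10 of 12, with a median of -0.55. The median over all tested probe sets was -0.03 in each sex. In females 7 probe sets of 5 genes passed the threshold, and in males 6 probe sets of 4 genes, all of them lower. TAC and sham were fully separated in 6 probe sets in females and 8 in males, beside 19.9% and 19.6% of all probe sets. Because the set was chosen on these responses, nothing is read from its counts. Calls kept or lost under alternatives, given below, only describe the fits.

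**Figure D1:**
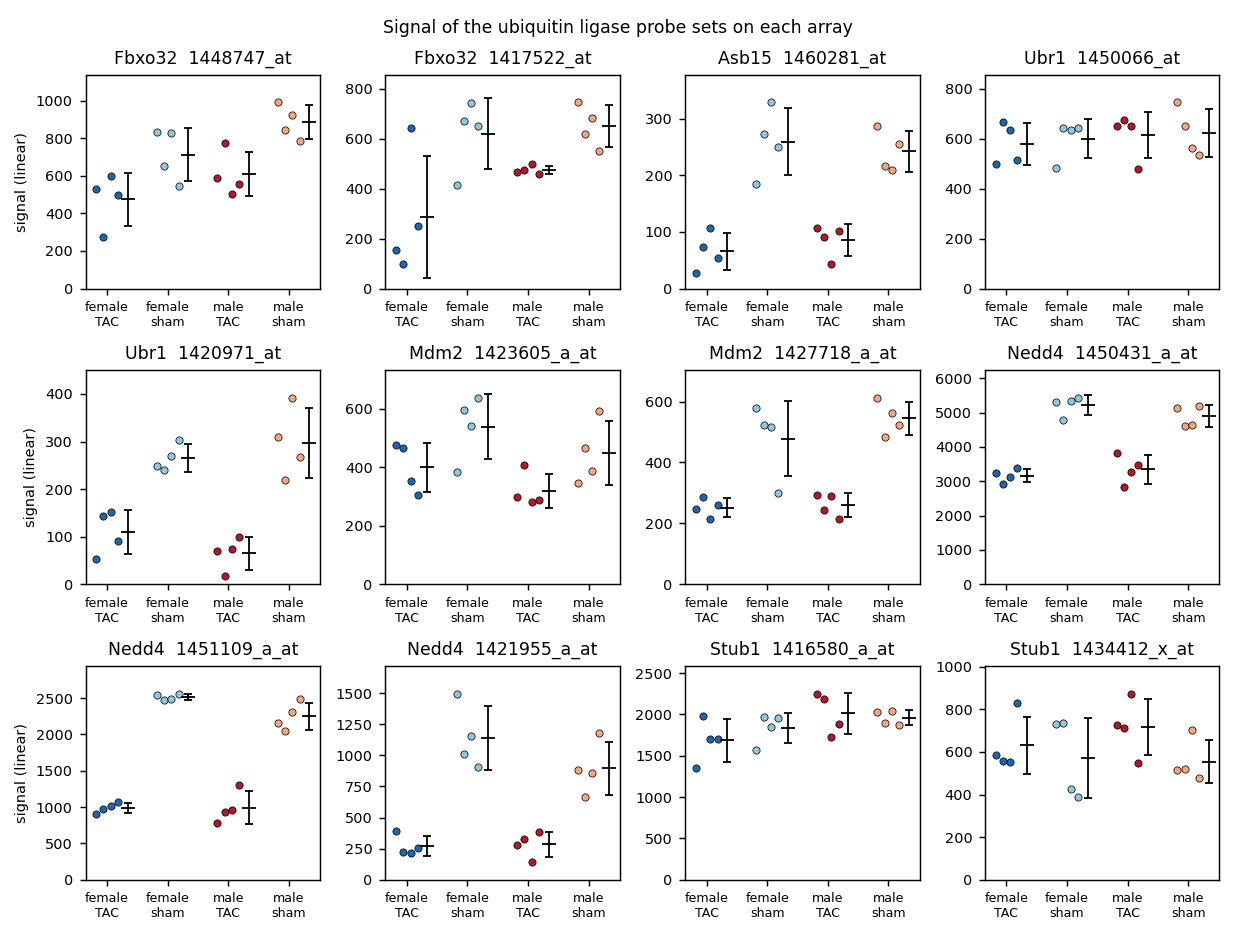
Signal of each of the 12 ligase probe sets on each array, with a separate vertical axis per panel. Points are arrays, bars are group means with SD (n = 4), and TAC stands left of sham within each sex. The points of Asb15, Ubr1 1420971_at and the 3 Nedd4 probe sets do not overlap between TAC and sham, while those of Ubr1 1450066_at and Stub1 do.

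Fbxo32 encodes the F-box subunit of an SCF ligase, the part that binds the substrate. Its probe set 1448747_at had signals of 531.5, 274.1, 596.7 and 495.9 in TAC females, against 831.3, 650.1, 825.2 and 544.8 in sham females. TAC males had 590.2, 774.2, 505.3 and 557.9, against 989.6, 845.6, 921.2 and 785.7 in sham males. The groups overlapped in females and were separate in males. Means were 475 ± 140.0 in TAC females and 713 ± 140.0 in sham females, and 607 ± 117 in TAC males and 886 ± 88.8 in sham males (SD, n = 4 each). The log2 difference was -0.60 ± 0.20 in females and -0.55 ± 0.20 in males. This probe set did not pass the threshold in either sex, and it crossed it under 7 of 28 alternatives in females and 3 of 28 in males.

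The second Fbxo32 probe set, 1417522_at, was far more scattered in banded females. It had 154.5, 100.2, 642.2 and 250.2 in TAC females, against 414.6, 669.3, 744.3 and 651.3 in sham females. In TAC males it had 468.2, 474.3, 498.5 and 457.2, against 744.6, 620.0, 683.9 and 551.7 in sham males. The TAC males lay close together below all sham males, while TAC female 3, at 642.2, lay among the sham females. The log2 difference was -1.36 ± 0.34 in females and -0.43 ± 0.34 in males. Leaving out 1 array at a time gave -1.84 to -1.003 in females, the lower end without TAC female 3. The probe sets share their annotated transcript, and their deviations from the group means correlated at r = 0.53 over 16 arrays.

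Asb15 encodes an ankyrin repeat and SOCS box protein, a substrate receptor for cullin ligases with expression largely in striated muscle. Its only probe set, 1460281_at, had 27.7, 73.4, 106.6 and 54.3 in TAC females, against 185.3, 273.1, 328.3 and 249.2 in sham females. TAC males had 106.3, 91.9, 43.9 and 101.3, against 287.2, 216.2, 208.9 and 255.8 in sham males. No TAC heart reached the lowest sham heart of either sex. The mean was 65.5 ± 33.2 in TAC females and 259 ± 59.2 in sham females, so TAC stood at 25.3% of sham. In males it was 85.9 ± 28.6 in TAC and 242 ± 36.5 in sham, or 35.5% (SD, n = 4 each). Every TAC value lay below the signal limit of 130.8 and every sham value above it, so the true ratio depends on the background under the TAC signals. On the log2 scale the difference was -1.83 ± 0.34 in females and -1.38 ± 0.34 in males.

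Ubr1 encodes a RING ligase of the N-end rule pathway, which destroys proteins by their first amino acid, and its probe sets gave different answers. Probe set 1420971_at had 53.8, 143.1, 152.3 and 91.4 in TAC females, against 249.1, 239.2, 269.5 and 303.7 in sham females. It had 69.6, 17.7, 73.3 and 100.0 in TAC males, against 308.9, 219.6, 391.6 and 267.1 in sham males. Both sexes were separated by operation here, with log2 differences of -1.24 ± 0.37 in females and -2.05 ± 0.37 in males. Probe set 1450066_at had 500.9, 665.8, 635.1 and 513.2 in TAC females, against 483.9, 644.6, 633.7 and 641.1 in sham females. It had 650.6, 676.2, 650.3 and 478.0 in TAC males, against 745.3, 652.7, 562.1 and 534.3 in sham males. On it the groups overlapped, and the differences were -0.05 ± 0.16 in females and -0.02 ± 0.16 in males. TAC stood at 96.3% of sham in females and 98.4% in males on this probe set, against 41.5% and 22.0% on the other.

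Both Ubr1 probe sets carry the same annotated transcript, yet their deviations from the group means were unrelated over the 16 arrays (r = -0.02). The log2 difference between them, 1420971_at minus 1450066_at, itself differed between TAC and sham, by -1.18 in females and -2.03 in males, without overlap. This is a description that restates the values above, with TAC signals of 1420971_at lying mostly below the signal limit, and no direction is given for Ubr1 as a gene. Split calls are common here. Of 1005 genes with several tested probe sets and at least 1 past the threshold in females, 876 (87.2%) had another that did not pass. In males it was 909 of 1075 (84.6%). These counts include genes such as Mdm2, whose probe sets were both lower in TAC. They do not show how common a gap as large as that of Ubr1 is. The female difference of 1420971_at lost its call with quantile normalization and without TAC female 1 or 5 or sham female 3 or 4.

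Mdm2 encodes the ligase that ubiquitinates p53 and is also a p53 target gene. Probe set 1427718_a_at had 248.6, 286.0, 213.4 and 259.7 in TAC females, against 577.5, 521.9, 515.5 and 298.6 in sham females. TAC males had 291.8, 242.8, 291.2 and 212.7, against 611.9, 485.1, 563.8 and 522.0 in sham males. All TAC hearts were below all sham hearts of their sex, narrowly so in females because of sham female 4. TAC averaged 252 ± 30.1 and sham 478 ± 123 in females, and TAC 260 ± 38.8 and sham 546 ± 54.6 in males (SD, n = 4 each). The log2 difference was -0.85 ± 0.19 in females and -1.03 ± 0.19 in males.

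Probe set 1423605_a_at of Mdm2 showed a smaller difference with overlap. It ranged from 304.2 to 475.1 in TAC females, against 382.4 to 636.6 in sham females, and from 279.7 to 405.8 in TAC males, against 346.4 to 592.6 in sham males. The log2 difference was -0.41 ± 0.20 in females and -0.46 ± 0.20 in males, and neither passed the threshold. Deviations on the Mdm2 probe sets ran against each other at r = -0.38 over 16 arrays.

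Nedd4 encodes a HECT ligase, which takes ubiquitin onto its own cysteine before passing it on and acts on many membrane proteins. It was lower in TAC hearts on all 3 probe sets without overlap in either sex. Probe set 1451109_a_at had 900.4, 967.7, 1012.5 and 1065.8 in TAC females, against 2548.0, 2478.8, 2489.3 and 2562.3 in sham females. TAC males had 775.9, 930.8, 961.0 and 1305.8, against 2150.1, 2048.4, 2301.3 and 2488.6 in sham males. The sham females agree closely, with a mean of 2520 ± 41.7 beside 987 ± 70.1 in TAC females, and males averaged 993 ± 224 in TAC and 2247 ± 192 in sham (SD, n = 4 each). The log2 difference was -1.34 ± 0.13 in females and -1.19 ± 0.13 in males. It kept its direction and its call in both sexes under all 28 alternatives run. The genes were picked on this contrast, so this describes the fits and adds no support.

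The other Nedd4 probe sets gave the same direction at different sizes. On 1450431_a_at TAC females had 3239.7, 2913.8, 3119.4 and 3391.5, against 5316.9, 4789.4, 5343.3 and 5425.1 in sham females. TAC males had 3827.3, 2821.9, 3281.3 and 3480.9, against 5135.5, 4621.2, 4637.3 and 5204.7 in sham males. This was the smallest Nedd4 difference, -0.72 ± 0.10 in females and -0.55 ± 0.10 in males. On 1421955_a_at TAC females had 391.2, 221.7, 217.1 and 252.0, against 1498.2, 1010.4, 1155.1 and 908.1 in sham females. TAC males had 278.7, 329.7, 144.7 and 385.4, against 882.4, 668.1, 854.8 and 1178.3 in sham males. Here the difference was the largest of the 3, at -2.03 ± 0.25 in females and -1.65 ± 0.25 in males. TAC thus stood at 60.7%, 39.2% and 23.7% of sham in females on 1450431_a_at, 1451109_a_at and 1421955_a_at, and at 68.4%, 44.2% and 31.8% in males. Probe sets 1450431_a_at and 1421955_a_at share an annotated transcript. The difference 1421955_a_at minus 1450431_a_at differed between TAC and sham by -1.31 in females and -1.10 in males, without overlap. RefSeq gives Nedd4 the pair of start sites printed above, and which transcripts each probe set reports was not tested.

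**Figure D2:**
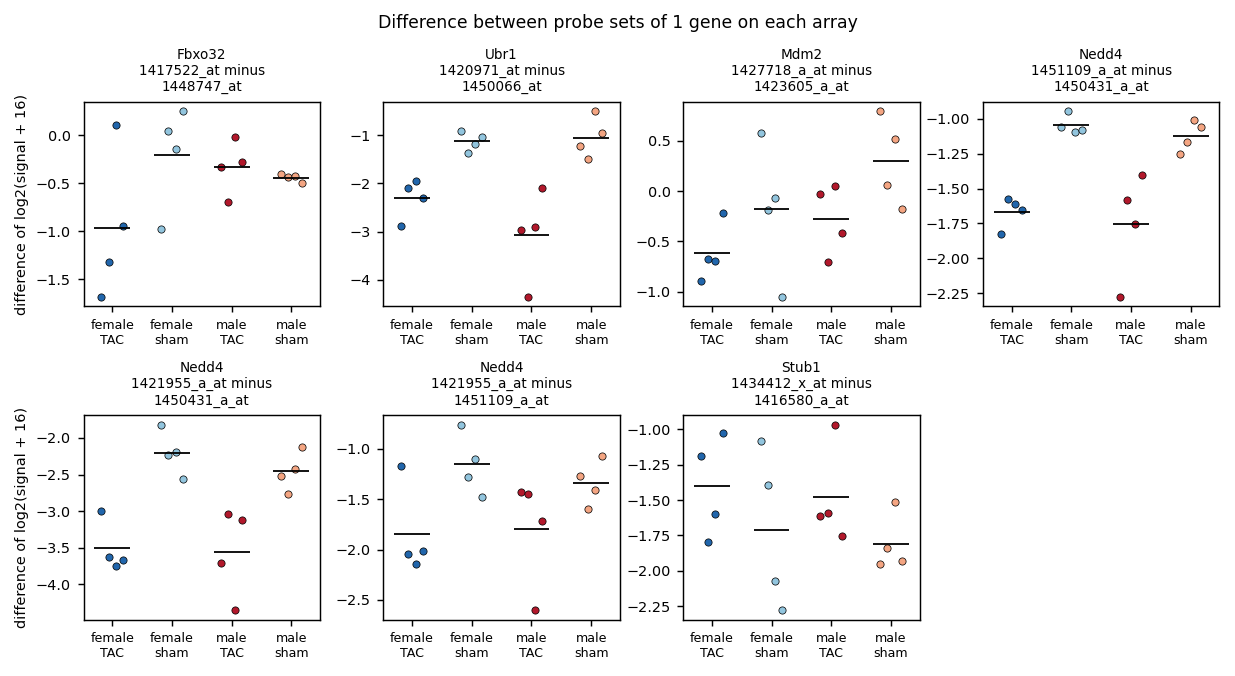
Log2 difference between probe sets of one gene on each array, the dimmer minus the brighter, for Ubr1, Nedd4, Mdm2, Fbxo32 and Stub1. Points are arrays, lines are group means, and TAC stands left of sham within each sex. The Ubr1 points and 2 of the 3 Nedd4 comparisons do not overlap between TAC and sham, while the others do.

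Stub1 encodes CHIP, a U-box ligase that binds Hsc70 and Hsp90 and hands misfolded clients to the proteasome. Its signals overlapped between operations on both probe sets. On 1416580_a_at they ran from 1354.5 to 1979.2 in TAC females, against 1572.9 to 1966.8 in sham females, and from 1723.4 to 2253.6 in TAC males, against 1874.7 to 2045.3 in sham males. The log2 difference was -0.13 ± 0.12 in females and 0.03 ± 0.12 in males. On 1434412_x_at the differences were 0.18 ± 0.21 in females and 0.36 ± 0.21 in males. The suffix of that probe set marks oligonucleotides that can also match other transcripts.

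**Figure D3:**
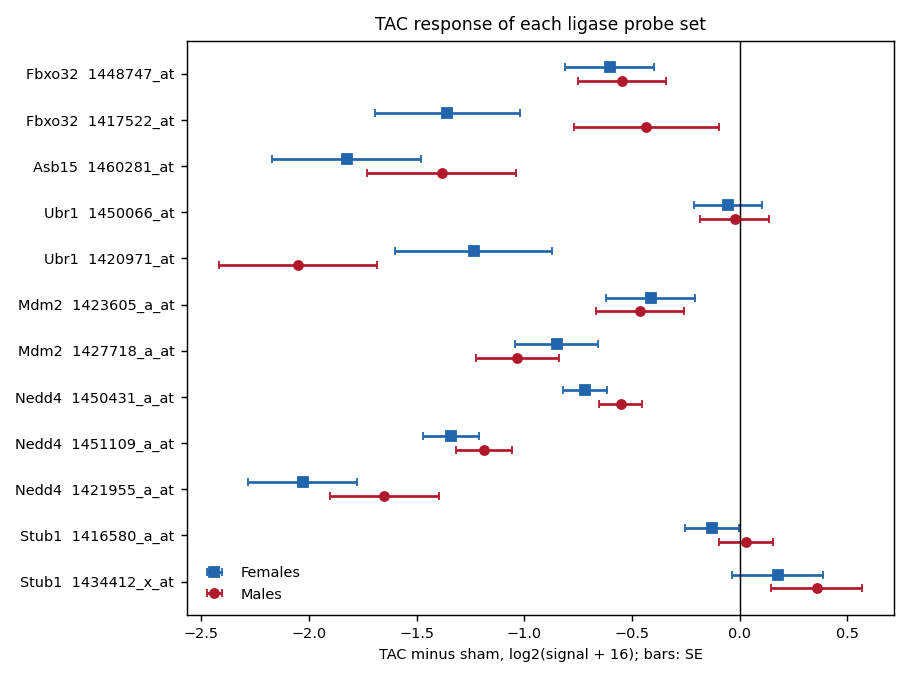
Log2 difference between TAC and sham with its SE for the 12 ligase probe sets in females and males. Squares are females and circles males, and 0 means equal signals. Nedd4 1421955_a_at is lowest in females at -2.03 and Ubr1 1420971_at in males at -2.05, while Stub1 1416580_a_at and Ubr1 1450066_at lie near 0 in both sexes.

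Measures of RNA quality also moved with banding. The Gapdh control gave a 3' over 5' signal ratio of 0.958 to 1.03 in TAC females against 0.785 to 0.918 in sham females, and 1.004 to 1.16 in TAC males against 0.837 to 0.921 in sham males. The log2 signal of the 18S 5' control was 9.35 to 10.74 in TAC females against 10.75 to 12.8 in sham females, and 9.11 to 13.2 in TAC males against 12.7 to 13.8 in sham males. It overlapped in males through TAC male 5, and the Gapdh ratio overlapped in neither sex. With the Gapdh ratio as a covariate, Asb15 had log2 differences of -2.33 in females and -2.13 in males, and Ubr1 1420971_at -0.78 and -1.38. Nedd4 1451109_a_at had -1.27 in females and -1.07 in males with it, and -1.15 and -0.86 with the 18S signal. In males the threshold was then passed by 2 probe sets with the Gapdh ratio and 3 with the 18S signal, and in females by 5 with each. The loss was general: over all probe sets, 2.93% passed in males with the Gapdh ratio and 7.34% with the 18S signal, and 3.67% and 11.3% in females, beside 17.8% in males and 15.1% in females without them. All 3 Nedd4 probe sets and Asb15 kept their calls in females with either covariate. In males the calls of Asb15, Ubr1 1420971_at and Nedd4 1450431_a_at were lost with either. Those of Mdm2 1427718_a_at and Nedd4 1421955_a_at were lost there with the Gapdh ratio, at log2 differences of -0.89 ± 0.35 and -1.67 ± 0.47, with SEs of 0.19 and 0.25 without it. The female calls of Fbxo32 1417522_at and Ubr1 1420971_at were lost with either covariate, and that of Mdm2 1427718_a_at with the Gapdh ratio, under which Mdm2 1423605_a_at passed in both sexes. The Fbxo32 1417522_at difference was then -1.35 ± 0.50 with the Gapdh ratio and -1.19 ± 0.40 with the 18S signal. The Gapdh ratio and the operation cannot be told apart, nor can the 18S signal and the operation in females, where its groups did not overlap. In males the part of the 18S signal was not tested.

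**Figure D4:**
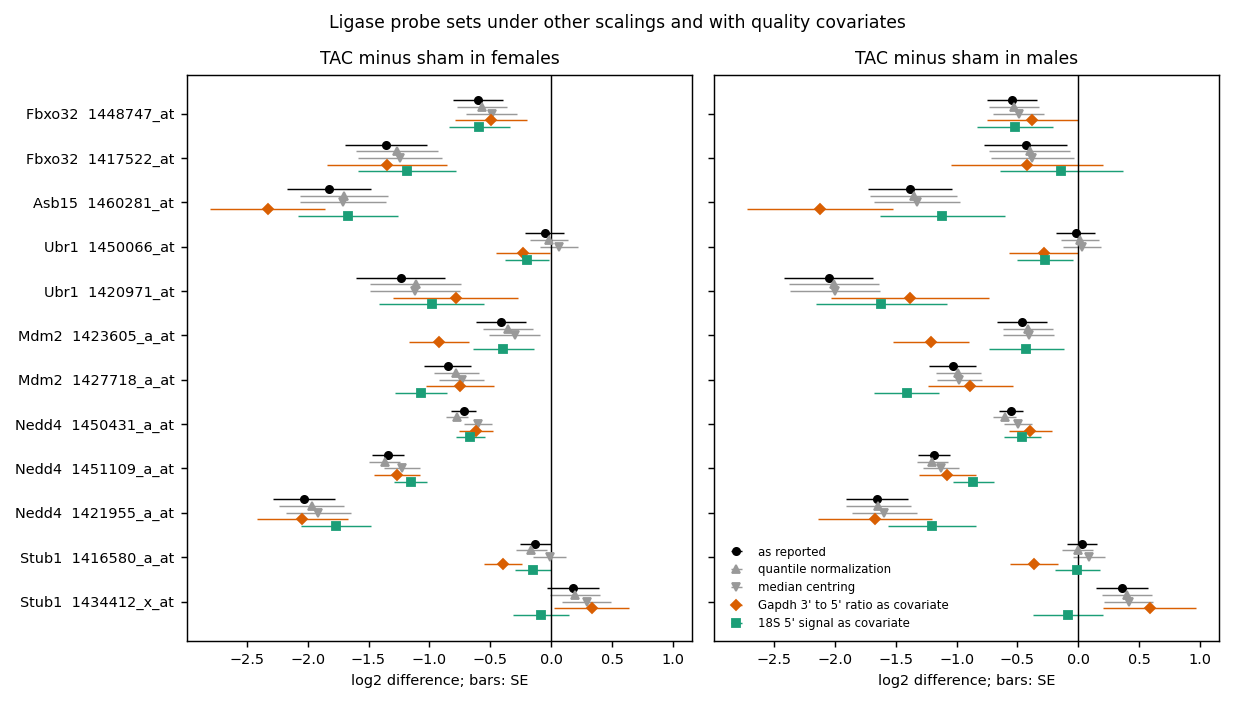
Log2 difference between TAC and sham for each ligase probe set in the fit as reported, after quantile normalization or median centring, and with the Gapdh ratio or the 18S 5' signal as a covariate, females left and males right, with SE bars. Nedd4 1451109_a_at stays below 0 in all of these, and the 18S covariate puts it nearest to 0, at -1.15 in females and -0.86 in males.

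The sexes were then compared. The genes were not picked on this contrast, but earlier results of these data were known when genes and tests were chosen. The female response minus the male response passed the threshold for 0 of 12 ligase probe sets, with adjusted p from 0.792 to 0.992 (limma), and 0 of 12 had an unadjusted p under 0.05. Among all probe sets 0% passed, and 6.61% had an unadjusted p under 0.05. The largest differences were -0.92 ± 0.48 for Fbxo32 1417522_at (adjusted p = 0.792) and 0.82 ± 0.52 for Ubr1 1420971_at (adjusted p = 0.834). The Ubr1 value rests on TAC signals mostly below the signal limit, as does that of Asb15, -0.44 ± 0.49 (adjusted p = 0.912), and for the Nedd4 probe sets it ran from -0.38 to -0.16. With SEs from 0.14 to 0.52, a moderate sex difference was not detectable for the noisier probe sets.

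Sham hearts of the sexes did not differ detectably in these genes. Differences, female minus male, ran from -0.32 for Fbxo32 1448747_at to 0.35 for Nedd4 1421955_a_at, with adjusted p of 0.624 or more (limma), beside 0.309% of all probe sets past the threshold. None of the 12 had an unadjusted p under 0.05, beside 10.5% of all. Among TAC hearts, Fbxo32 1417522_at stood lowest, at -1.01 ± 0.34 (adjusted p = 0.658), with 3 of 4 TAC females below all 4 TAC males. Without TAC female 3 the difference was -1.49 and passed (adjusted p = 0.0114, limma), and over all alternatives its adjusted p ran from 0.0114 to 0.913. Its other probe set, 1448747_at, differed by -0.38 ± 0.20 (adjusted p = 0.807). Of all probe sets, 0.0663% passed between TAC females and TAC males and 6.45% had an unadjusted p under 0.05, as 1 of 12 ligase probe sets did.

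Genes with the most similar profiles over the 16 arrays were looked up for Fbxo32 and Asb15. Asb15 arrays split by operation in both sexes and Fbxo32 1448747_at arrays in males, so r partly reflects the groups. For Asb15 they were Zfp280c at r = 0.97, and Ttc3, Idh3g, Rnf114 and Got1 at 0.93 each. Ttc3 and Rnf114 encode ubiquitin ligases, Idh3g a subunit of mitochondrial isocitrate dehydrogenase and Got1 cytosolic aspartate aminotransferase. Within groups their r values were 0.82 for Zfp280c, 0.56 for Ttc3, 0.85 for Idh3g, 0.60 for Rnf114 and 0.58 for Got1. For Fbxo32 1448747_at they were Myh6 and Ephx2 at r = 0.83, Slc41a1 at 0.82 and Flt1 and Cyfip2 at 0.81. Myh6 encodes the adult cardiac myosin heavy chain, and Ephx2 a soluble epoxide hydrolase. Within groups r was 0.53 for Myh6 and 0.71 for Ephx2.

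The wider ubiquitin pathway was read from 12 lists of 199 tested genes, each by its brightest probe set. Of these, 21 rose and 23 fell in females, 22.1% beside 13.1% of all genes counted so, and 18 rose and 16 fell in males, 17.1% beside 15.9%. The lists were chosen with earlier results of these data known, so nothing is read from these shares. Genes named below were picked by their p-values, so the p-values printed for TAC against sham only describe them. The median log2 difference was -0.02 in females and -0.04 in males. With quantile normalization 20 rose and 14 fell in females, and with median centring 29 rose and 9 fell. Median centring moved the median of all probe sets in females to 0.08, so directions near 0 depend on the scaling. The female response differed from the male one for 0 of 199 genes (limma). The Gapdh ratio as a covariate left 6 calls in females and 3 in males, beside the general loss given above. Many single calls were unstable: 23 of 44 in females and 13 of 34 in males were lost without some array. Cul3, Fbxo8 and Myh7 passed in both sexes under every alternative that was run.

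**Figure D5:**
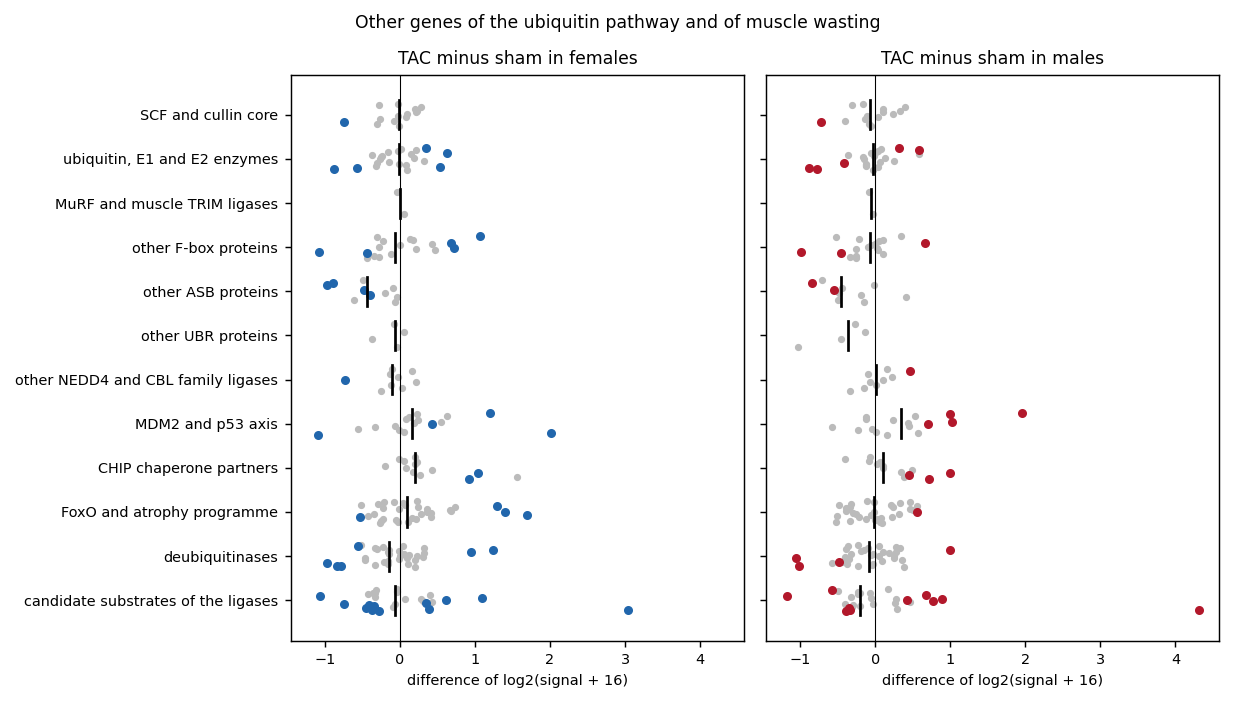
Log2 difference between TAC and sham of every tested gene in the 12 pathway lists, females left and males right. Coloured points passed the threshold, grey ones did not, and upright bars are list medians. Most points lie near 0, and the other ASB proteins have list medians of -0.44 in females and -0.46 in males.

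Scaffolds and carriers of the relay changed in single members. Cul3, a cullin scaffold, fell by 0.75 ± 0.11 in females (adjusted p = 0.000177, limma) and by 0.72 ± 0.11 in males (adjusted p = 0.000166), the only 1 of 14 SCF and cullin genes to pass. Its signal averaged 1017 ± 78.5 in TAC females and 1714 ± 83.1 in sham females (SD, n = 4 each). Among 22 ubiquitin, E1 and E2 genes, 3 rose and 2 fell in females, and 2 rose and 3 fell in males. Ube2b, an E2 enzyme linked to muscle wasting, fell by 0.88 in females and 0.78 in males, and Ube2d1 fell by 0.57 and 0.89. Cdc34, the E2 partner of SCF ligases, rose by 0.35 in females and 0.31 in males, and its relative Ube2r2 rose by 0.62 in females with -0.05 in males. Ube2d2a rose in females, and Ube2v2 rose and Ube2e3 fell in males, named after their values were seen. Ube2v2 and Cdc34 in males each lost their call under 11 of 28 alternatives, and Ube2d1 in females under 13 of 28. Neither muscle TRIM gene with a probe set passed: Trim54 had 0.06 in females and -0.03 in males, and Trim32 -0.04 and -0.09.

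Relatives of the ligases were mixed. Of 18 other F-box genes, 3 rose and 2 fell in females, and 1 rose and 2 fell in males. Fbxo8 fell by 1.07 ± 0.16 in females (adjusted p = 0.000181, limma) and 0.98 ± 0.16 in males, and Fbxo3 fell by 0.44 and 0.46. Fbxw11, a receptor for beta-catenin and I-kappa-B, rose by 0.68 in females and 0.67 in males, while Fbxo22 and Skp2 rose in females, by 0.73 and 1.06. Skp2 was named after its values were seen, and its call was lost under 13 of 27 alternatives. Of 10 ASB genes beside Asb15, 4 fell in females and 2 in males, and 0 rose. Of all genes, 6.69% fell in females and 7.77% in males, and nothing is read from so few calls. Asb14 fell by 0.90 ± 0.21 in females and 0.84 ± 0.21 in males, Asb11 by 0.48 and 0.55, and in females Asb13 fell by 0.97 and Asb8 by 0.40. With median centring 1 of the 10 fell in females, and with either RNA quality covariate none did in either sex. The list median, -0.44 in females and -0.46 in males, was -0.23 and -0.32 with the Gapdh ratio. With the 18S signal it was -0.39 and -0.29. Over all alternatives in females, Asb13 lost its call under 12 of 27 and Asb8 under 13 of 28.

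The other UBR genes gave 0 calls of 4 in each sex, and Ubr2, the closest relative of Ubr1, had log2 differences of -0.04 ± 0.43 in females and -1.04 ± 0.43 in males. Of 9 other NEDD4 and CBL family genes, Cbl fell by 0.73 in females and had 0.10 in males. That fall lost its call under 12 of 27 alternatives, among them quantile normalization, median centring and both covariates. Ndfip1, an adaptor that activates Nedd4-type ligases, rose by 0.46 in males and had 0.16 in females. None of these female and male responses differed by the test (adjusted p = 0.669 for Cbl and 0.767 for Ndfip1, limma).

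Calls in the p53 axis and among chaperone partners of Stub1 were few and are given as descriptions. Of all genes, each by its brightest probe set, 6.37% rose in females and 8.1% in males. Of 16 genes of the p53 axis, 3 rose and 1 fell in females and 4 rose in males, with list medians of 0.16 and 0.34. Btg2 rose by 1.20 ± 0.37 in females and 1.95 ± 0.37 in males, and Phlda3 by 0.43 and 0.70. In TAC males the Btg2 signals were 1176.6, 1328.2, 1631.8 and, in TAC male 5, 6377.4, against 302.7 to 611.3 in sham males. The groups did not overlap, and leaving out 1 array at a time gave 1.40 to 2.21 in males, all past the threshold. In females the Btg2 call was lost without TAC female 1, 3 or 5 or sham female 1 or 3. Cdkn1a, which halts the cell cycle, rose by 2.01 in females, with signals of 763.3 to 2742.2 in TAC females against 255.7 to 402.6 in sham females, and had 0.57 in males. Plk2 rose by 0.99 in males, with 0.23 in females. Mdm4, the partner of Mdm2, fell by 1.09 in females, and Zmat3 rose by 1.03 in males, both named after their values were seen. In females the call of Mdm4 was lost under 9 of 27 alternatives and that of Phlda3 under 8 of 28. In males that of Zmat3 was lost under 3 of 27. Of 13 chaperone partners of CHIP, 2 rose in females and 3 in males. Hsp90aa1 rose by 1.04 ± 0.18 in females (adjusted p = 0.000555, limma) and 1.001 ± 0.18 in males, and Hspa8 by 0.93 and 0.71. Hspa4 rose by 0.45 in males and had 0.27 in females. Neither list kept a call with the Gapdh ratio as a covariate, while the list medians were then 0.26 in females and 0.32 in males for the p53 axis, and 0.27 and 0.37 for the chaperones.

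Of 32 genes of the FoxO and atrophy list, 3 rose and 1 fell in females and 1 rose in males. With median centring 6 rose and 0 fell in females. Ddit4, a brake on mTORC1, rose by 1.69 ± 0.36 in females and had -0.05 in males. The metallothionein Mt2 rose by 1.39 ± 0.27 in females, with -0.02 in males, and Cebpd rose by 1.29 in females, with 0.56 in males. TAC female 3 was the highest array for all 3 genes, at 4681.5 for Ddit4, 4992.5 for Mt2 and 2383.5 for Cebpd, against 1065.3 to 2105.4, 1734.1 to 2251.1 and 619.5 to 754.7 in the other TAC females. Without it Ddit4 rose by 1.30 and Mt2 by 1.07, still past the threshold, and Cebpd had 0.85 and did not pass. The autophagy receptor Sqstm1 fell by 0.53 in females, with -0.22 in males, and lost its call with median centring, with either covariate and without TAC female 2 or sham female 1. Igfbp5 rose by 0.55 in males and was named after its values were seen, and its call was lost under 13 of 28 alternatives. The sex difference of these responses did not pass for Ddit4 (adjusted p = 0.536) or Mt2 (adjusted p = 0.471, limma).

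Of 34 deubiquitinases, which remove ubiquitin, 2 rose and 4 fell in females, and 1 rose and 3 fell in males. Usp2 fell by 0.84 in females and 1.01 in males, Usp8 by 0.97 in females, with -0.57 in males, and Usp15 by 1.06 in males, with -0.46 in females. Usp39, known for its part in splicing, rose by 0.95 in females and had 0.28 in males. Uchl1 rose in both sexes, Usp3 and Brcc3 fell in females and Usp9x in males, named after their values were seen. In males Uchl1 lost its call under 17 of 27 alternatives and Usp9x under 11 of 28.

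Among 27 candidate substrates of these ligases, 5 rose and 7 fell in females, and 5 rose and 5 fell in males. With quantile normalization 4 rose and 2 fell in females and with median centring 6 and 1, and in males 6 and 2 with either. Myh7, the fetal myosin heavy chain and a standard marker of the loaded mouse heart, rose by 3.03 ± 0.34 in females and 4.31 ± 0.34 in males. Troponin I, Tnni3, a MuRF1 substrate, fell by 0.28 in females and 0.39 in males, and lost its call in both sexes with quantile normalization. Pik3r1, a subunit of PI3 kinase, fell by 1.07 in females and fell by 1.18 in males, and Vim rose by 0.89 in males, with 0.28 in females. These are transcript levels, and protein turnover was not measured.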

How the data were processed

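RNA from the left ventricle of 16 mice was measured on 16 arrays, 4 in each of 4 groups. Per the labels, the authors computed the deposited signal intensity of each probe set, a linear value, with GCOS (version and settings not given in the sources used here), from cRNA labelled with an oligo(dT) primer. RAE 430A is the array name in the series text, but probe set names and annotation belong to the mouse 430A design. The common trimmed mean (2% cut from each end) shows that the arrays had been scaled globally, and that scaling was kept. The group sizes limit the precision, and the series text calls the arrays biological replicates. The running number in the titles follows the groups in blocks, so if it is a processing order, that order and the groups cannot be told apart.

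The 64 control probe sets and the dimmest 40% of the rest by mean log2(signal + 16) were left out. Group means over all 16 arrays were fitted with limma 3.58.1 in R 4.3.3, with an intensity trend and Benjamini-Hochberg adjustment over 13575 probe sets. Tests were 2-sided with a threshold of 0.05, and "rose" and "fell" refer to it. limma gave every adjusted p-value. The script was tested on simulated data.

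Of 20380 probe sets with 1 symbol, 20351 matched the RefSeq table of GRCm38.p6, which changed 0 symbols. Sequences are RefSeq's. The ligases, pathway lists and tests were chosen with earlier results of these data known. All ligase probe sets are reported. Up to 4 genes per list were named by the smallest p over both TAC contrasts, and similar genes by the 5 highest r. The alternatives changed the normalization (quantile or median centring), the pseudocount (1 or 64), the filter (none or 60%) and the trend (none), or used array weights, a replicate block, 2 quality covariates, only the groups compared, and each array left out.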

Additional observations from a re-analysis of the deposited data

Results flagged for a closer look

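Of 48 sets of 4 arrays, each 1 ligase probe set in 1 group, 5 held an array far from the other 3, its gap to the nearest array exceeding Dixon's 95% critical share of the range. By that criterion chance flags about 1 in 20 sets. Ubr1 1450066_at was low in TAC male 5, at a signal of 478.0, and in sham female 1, at 483.9. Mdm2 1423605_a_at was high in TAC male 2, at 405.8. Nedd4 1450431_a_at was low in sham female 2, at 4789.4, which still lay above every TAC female. Stub1 1434412_x_at was high in TAC female 5, at 830.1.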

How the results depend on the processing

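Across the 12 ligase probe sets, 1274 comparisons of a single value with an alternative were made. In the comparisons of the sexes, 56 changed sign, none of them past the threshold. Some differences between TAC and sham changed sign too, without a call. They ran from -0.36 to 0.10 for Stub1 1416580_a_at in males. For Stub1 1434412_x_at they ran from -0.083 to 0.33 in females and -0.087 to 0.58 in males. For Ubr1 1450066_at the range was -0.23 to 0.062 in females and -0.28 to 0.089 in males. Among differences between TAC and sham, calls were lost in 10 of 194 comparisons in females and 8 of 166 in males, and gained in 8 of 140 and 4 of 168. Between TAC females and TAC males 1 was gained. The ligase count in males was 6, and 2 with the Gapdh ratio or 3 with the 18S signal as a covariate, fits in which 2.93% and 7.34% of all probe sets passed instead of 17.8%. The list count was 44 in females, with 6 and 28 under those covariates, and 34 in males, with 3 and 12. Leaving out 1 array at a time gave 6 to 8 ligase calls in females and 6 to 7 in males, 30 to 45 list calls in females and 25 to 35 in males, and 0 to 1 ligase calls between TAC females and TAC males. Single list calls were less stable than these totals, with 23 of 44 in females and 13 of 34 in males lost without some array. With the replicate number as a block, ligase calls were 8 in females and 6 in males and list calls 34 and 28. Deviations of same-numbered arrays correlated at -0.012 to 0.053 in females and -0.031 to 0.12 in males, so the numbers were not taken as pairs.

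Sign changes in the female minus male response were 0.0011 for Fbxo32 1448747_at and 0.029 for Ubr1 1450066_at with median centring, 0.053 and 0.073 for Ubr1 1450066_at with the Gapdh and 18S covariates, -0.015 for Mdm2 1423605_a_at with array weights and 0.0049 for Stub1 1434412_x_at with 18S. In sham mice they were 0.046 for Fbxo32 1417522_at and 0.072 for Ubr1 1420971_at with 18S, and for Stub1 1434412_x_at 0.011 with quantile normalization, 0.016 with median centring and 0.0032 with a pseudocount of 64. In TAC mice they were 0.033 for Ubr1 1450066_at with Gapdh, 0.0072 and 0.039 for Mdm2 1427718_a_at with quantile normalization and median centring, and 0.025 and 0.045 for Nedd4 1421955_a_at with the same. Nedd4 1451109_a_at had -0.0030 with quantile normalization and -0.036 with Gapdh. Leaving out 1 array turned the sign of the response difference of Fbxo32 1448747_at (-0.18 to 0.18), Ubr1 1450066_at (-0.14 to 0.038), Mdm2 1423605_a_at (-0.10 to 0.17) and Mdm2 1427718_a_at (-0.021 to 0.28). In sham mice it did so for Fbxo32 1417522_at (-0.19 to 0.087), Asb15 (-0.041 to 0.22), Ubr1 1450066_at (-0.12 to 0.048), Ubr1 1420971_at (-0.26 to 0.0079) and Stub1 1434412_x_at (-0.14 to 0.16). In TAC mice it did so for Mdm2 1427718_a_at (-0.12 to 0.036), Nedd4 1451109_a_at (-0.096 to 0.15) and Nedd4 1421955_a_at (-0.31 to 0.14). The cause of these changes was not tested, and low signals near the limit bound what Asb15 and Ubr1 1420971_at can show.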

Other observations

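Within groups, the ligases varied together in some cases and not in others, described here by Pearson's r of deviations from the group means over 16 arrays, on the brightest probe set of each gene. The arrays share scaling and RNA quality between genes, so these values are descriptions. Asb15 and Stub1 had r = 0.72 and Ubr1 and Stub1 0.60, while Fbxo32 and Nedd4 had 0.02. Fbxo32 and Mdm2 had -0.33 and Mdm2 and Nedd4 -0.35. TAC female 3 had the highest signal of the TAC females on both Fbxo32 probe sets, on Asb15 and on Ubr1 1420971_at.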
